A study of Mus musculus with 14 samples.

Results

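The Myc, Max and Mxd network was followed through 10 genes, Myc, Mycn, Mycl, Max, Mxd1, Mxd3, Mxd4, Mxi1, Mnt and Mlx, in RNA-seq libraries of C2C12 cells, a mouse myoblast line that divides in growth medium and can form muscle fibres. A gene belonged to the set where its Ensembl identifier, read without the version suffix, carries one of these symbols in GENCODE M21. The symbols were chosen with earlier results of these data known. All 10 were found among the 49585 genes of the deposited table. Every group carried a short hairpin RNA, either a control (shControl) or one against Foxm1 (shFoxM1), a forkhead transcription factor of dividing cells, and was either quiescent, through suspension in semi-solid methylcellulose medium, or activated, a state the labels name without saying how it was reached. The 4 groups are quiescent shControl (QC, 3 libraries), quiescent shFoxM1 (QFM, 4 libraries), activated shControl (PC, 3 libraries) and activated shFoxM1 (PFM, 4 libraries). The labels do not say whether the hairpins were used in 1 clone or in a pool, or whether libraries of a group came from separate cultures, so the p-values speak only of variation among the sequenced libraries, and that variation may be technical.

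Myc proteins are basic helix-loop-helix leucine-zipper transcription factors that bind the E-box sequence CACGTG as dimers with Max and raise the transcription of genes for ribosome production, nucleotide synthesis and growth. The Mxd proteins, Mxi1 and Mnt dimerise with Max as well, bind the same sequence and recruit Sin3 corepressor complexes, so they compete with Myc for Max and for its sites. Mlx is the partner of the glucose-sensing factors Mlxip and Mlxipl and can also pair with Mxd1, Mxd4 and Mnt. Members of the Mxd family are known to be high in cells that have left the cell cycle, with Mxd3 as the member linked to S phase, and Myc is an early response gene of cells that re-enter it.

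Of the genes that differed between the states, 3 are shown by the 250 bases before their start sites, to let their regulatory letters be read beside their levels. The sequences are from RefSeq (GRCm38.p6), in which 9 of the 10 genes had an entry, Myc being the other. They are written 5′ to 3′ on the strand of the gene, here the minus strand, with the searched motifs in capitals. Mxd4 (chr5:34187711-34187960) holds 1 E-box and 2 inverted CCAAT boxes, read here as ATTGG, Mxd3 (chr13:55329732-55329981) holds the E2F motif GCGGGAA, and Mxd1 (chr6:86669160-86669409) holds 4 CCAAT boxes.
Mxd4: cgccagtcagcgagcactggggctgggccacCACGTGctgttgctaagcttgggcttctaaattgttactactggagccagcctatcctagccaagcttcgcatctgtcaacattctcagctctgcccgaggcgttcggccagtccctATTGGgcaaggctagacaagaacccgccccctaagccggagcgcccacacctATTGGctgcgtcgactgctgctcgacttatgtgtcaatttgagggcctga
Mxd3: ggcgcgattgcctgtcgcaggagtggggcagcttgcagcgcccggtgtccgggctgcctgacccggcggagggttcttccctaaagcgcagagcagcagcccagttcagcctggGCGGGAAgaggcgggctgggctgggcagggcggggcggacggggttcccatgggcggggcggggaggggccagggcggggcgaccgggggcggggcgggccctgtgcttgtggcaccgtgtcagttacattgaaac
Mxd1: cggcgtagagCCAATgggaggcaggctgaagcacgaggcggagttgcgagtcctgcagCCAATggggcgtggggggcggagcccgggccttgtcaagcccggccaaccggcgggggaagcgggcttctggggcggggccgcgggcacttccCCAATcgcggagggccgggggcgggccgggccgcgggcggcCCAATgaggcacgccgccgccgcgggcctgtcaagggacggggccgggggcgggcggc
The E-box of Mxd4 lies at bases 219 to 214 before the start and its ATTGG copies at 102 to 98 and 50 to 46. The E2F motif of Mxd3 lies at 136 to 130. On both strands and without overlap between the motifs in these 3 windows, CACGTG was in 6.02% of all 32851 RefSeq windows of this length, CCAAT in 33.8%, GCGGGAA in 3.82%, the cell cycle homology region letters TTTGAA in 16.0% and the forkhead letters TAAACA in 12.0%. Mnt and Mlx also held a CACGTG, at bases 123 to 118 and 40 to 35, and Mlx 2 inverted CCAAT boxes. Mycn held TTCAAA, the reverse complement of TTTGAA, and the third of 3 Mxi1 windows held TAAACA. The windows of Mycl and Max and the other Mxi1 windows held none of the 5. The Mxd3 and Mxd1 windows were richer in G and C (73.2 and 78.4%) than that of Mxd4 (58.0%) and the median window (52.4%).

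Depth was estimated at 2.74e+07 to 3.68e+07 reads per library from the steps in low values. The largest principal component of log2 values (52.8% of the variance) separated quiescent from activated libraries, and QFM 4 lay at one end of the second (14.7%). All 8 myoblast markers reached 1 FPKM (fragments per kilobase of transcript, scaled to the mapped fragments of the library), and none of 5 endothelial and none of 5 epithelial markers did. Of 5 markers each, 1 leukocyte (Cd68), 1 adipocyte (Cebpa) and 1 neural gene (Tubb3) did, while Ptprc, Plin1 and Sox10 were at or near 0. Foxm1 was at 37.06, 35.34 and 34.93 FPKM in PC and at 14.47, 14.74, 27.58 and 11.21 FPKM in PFM, so the groups did not overlap. In quiescent cells it was at 23.87, 12.76 and 10.01 FPKM in QC and 9.95, 6.61, 8 and 15.56 FPKM in QFM, which overlapped. The knockdown difference of Foxm1 was -1.11 ± 0.32 on the log2 scale in activated cells (adjusted p = 0.624).

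In quiescent shControl cells the most abundant transcript of the network was Mxd4, at 28.02 ± 3.54 FPKM (mean ± SD, n = 3 in shControl groups and n = 4 in shFoxM1 groups throughout). Mlx (20.9 ± 3.87), Max (19.9 ± 2.16) and Myc (17.6 ± 3.97 FPKM) followed, each overlapping its neighbour in that order. Mnt (10.96 ± 0.919) and Mxd3 (8.88 ± 2.29 FPKM) overlapped each other and lay below Myc. Mxi1 (4.18 ± 0.907), Mxd1 (2.30 ± 0.35) and Mycl (0.933 ± 0.193 FPKM) came last, each below the one before in every library. Mycn was listed at 0 in all 14 libraries and was not tested.

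The order of levels changed with activation. In activated shControl cells Mlx (26.0 ± 4.80 FPKM) and Myc (25.5 ± 20.5 FPKM) had the highest means and Mxd4 (11.8 ± 4.76 FPKM) stood below Mxd3 (24.2 ± 9.49 FPKM) and Max (18.6 ± 2.85 FPKM). The activated shFoxM1 cells gave the same first and second place, with Mlx at 28.6 ± 5.76 and Myc at 28.5 ± 6.48 FPKM, and again placed Mxd4 below Max and Mxd3, at 10.96 ± 4.30 FPKM. Among neighbours of the upper 5 places, Max and Mxd4 in activated shControl cells did not overlap and the other pairs of both activated groups did. Mxi1, Mxd1 and Mycl kept the last 3 measured places in all 4 groups, and in each group no library of one overlapped the next.

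**Figure D1:**
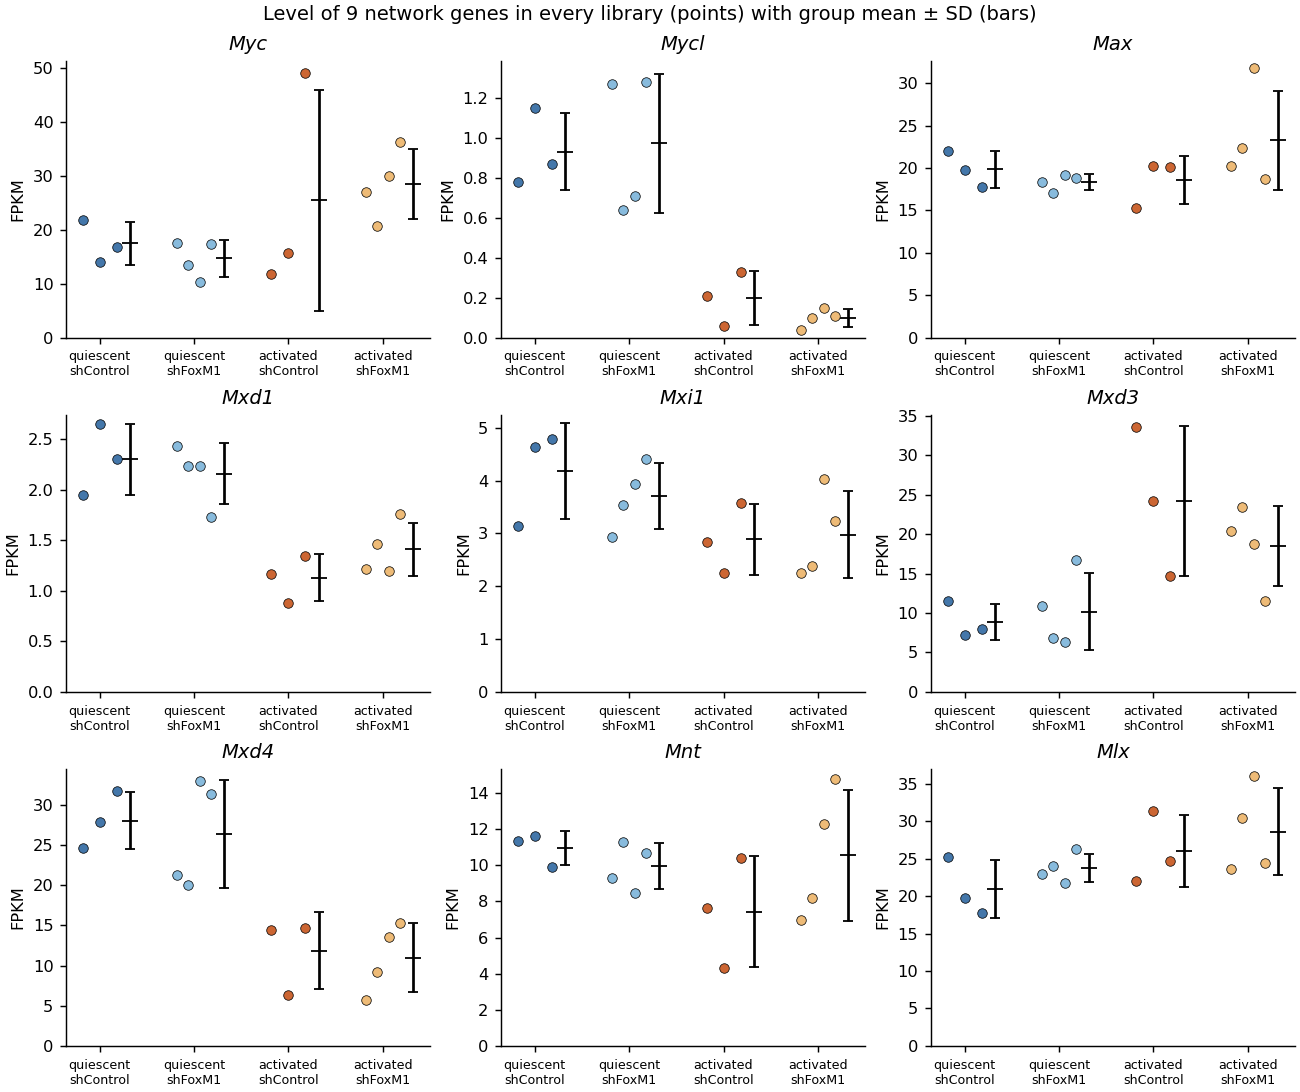
FPKM (vertical axes, from 0) of the 9 measured network genes in every library, as points, for the 4 groups on the horizontal axes, with the group mean ± SD as bars. Mxd4 lies between 19.96 and 32.89 FPKM in the quiescent libraries and between 5.76 and 15.27 FPKM in the activated ones, while Myc reaches its highest value, 49.07 FPKM, in a single activated shControl library.

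The first comparison asked which network genes differ between activated and quiescent shControl cells. Mxd4, Mxd1 and Mycl fell and Mxd3 rose, while Myc, Max, Mxi1, Mnt and Mlx did not pass the test. A gene was called where limma's adjusted p over all 12432 genes tested was below 0.05. These 4 of the 9 tested members stand beside 28.3% of all genes tested, of which 11.7% were called higher and 16.5% lower. At an unadjusted p under 0.05 they were 4 of 9 as well, beside 41.5% of genes. Libraries of the states did not overlap for the same 4 members, against 44.1% of all genes tested. Mycl entered the test only through the state in which it is high, which favours a difference. With it set aside 3 of 8 members were called and 3 of 8 did not overlap. In shFoxM1 cells Mxd4 and Mycl fell and Mxd3 rose, 3 of 9 members against a background of 30.7% (18.3% higher, 12.3% lower). Here 5 of 9 were at an unadjusted p under 0.05, beside 41.3% of genes, and the members whose libraries did not overlap were Mxd4, Mycl and Myc, against 27.8% of genes. With Mycl set aside these were 2 of 8 called and 2 of 8 without overlap. Of all calls, 41.5% in shControl and 59.8% in shFoxM1 cells were higher, a split that scaling changed to 54.4 and 53.0% (median-of-ratios), 54.3 and 55.2% (quantile) or 14.5 and 28.8% (protein-coding sum). The log2 fold changes of Mxd4, Mycl and Mxd1 stayed negative and that of Mxd3 positive under each, but not every call was kept. Mxd3 in shFoxM1 cells was not called under any of the 3 (adjusted p = 0.0635, 0.0531 and 0.109 in that order), nor were Mycl and Mxd1 in shControl cells under quantile normalization.

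**Figure D2:**
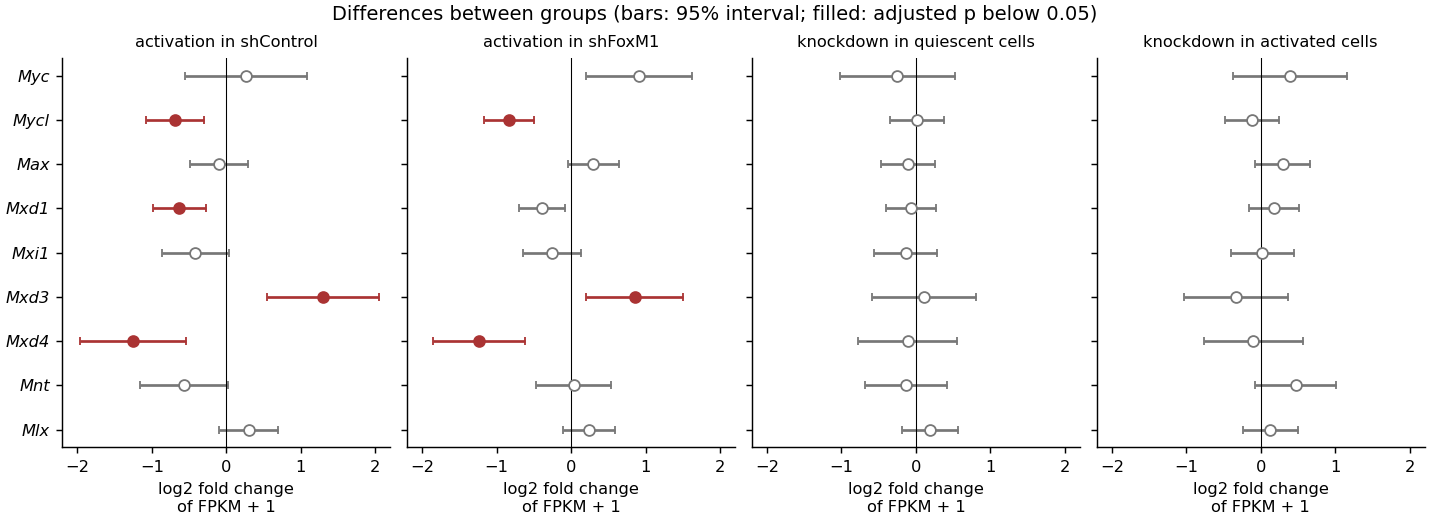
Log2 fold change of FPKM + 1 with its 95% interval (horizontal axes) for the 9 measured genes (vertical axis) in 4 comparisons, filled red where the adjusted p is below 0.05. The filled points are Mycl, Mxd1, Mxd3 and Mxd4 for activation in shControl cells and Mycl, Mxd3 and Mxd4 for activation in shFoxM1 cells, and no point is filled for the knockdown in either state.

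Mxd4 (ENSMUSG00000037235.13, GRCm38 chromosome 5, 34173883 to 34187720, minus strand), a Max-binding repressor of non-dividing cells, was at 24.56, 27.87 and 31.64 FPKM in QC and 14.46, 6.33 and 14.70 FPKM in PC. With shFoxM1 it was at 21.26, 19.96, 32.89 and 31.32 FPKM in quiescent and 5.76, 9.24, 13.58 and 15.27 FPKM in activated cells. Every activated library lay below every quiescent one. The log2 fold change was -1.25 ± 0.33 (SE) in shControl cells (adjusted p = 0.0133, ratio of means 0.422) and -1.24 ± 0.29 in shFoxM1 cells (adjusted p = 0.00552, ratio 0.416). The shControl call was lost without PC 2, the library with the lowest level of that group (-0.89, adjusted p = 0.0693), and kept in 13 of 14 omissions, whereas the shFoxM1 call was kept in all 14.

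Muscle differentiation markers moved with the same states. Their summed level, over 10 of 10 listed genes that reached 1 FPKM, was 284 to 1852 FPKM in QC, 95.4 to 949 in QFM, 59.2 to 75.5 in PC and 19.5 to 97.1 in PFM. All 10 were called lower in both activation comparisons. Of the 8 myoblast markers, 4 were called lower and 1 higher in each of these comparisons. Fewer differentiated cells and less RNA per cell cannot be told apart in bulk samples, and the part of these cells in the fall of Mxd4, Mxd1 and Mycl was not tested. QFM 3, with the lowest marker sum of the quiescent libraries (95.4 FPKM), had the highest Mxd4 level of all libraries (32.89 FPKM). In QC the library with the lowest sum, QC 1 (284 FPKM), had the lowest Mxd4 level of its group (24.56 FPKM). In PC this was also so, for PC 2 (sum 59.2 FPKM, Mxd4 6.33 FPKM). In PFM the library with the lowest sum, PFM 2 (19.5 FPKM), had Mxd4 at 9.24 FPKM, and the lowest Mxd4 level was in PFM 1 (5.76 FPKM).

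Mxd3 (ENSMUSG00000021485.13, chromosome 13, 55325168 to 55329823, minus strand), the family member linked to S phase, was at 11.49, 7.23 and 7.91 FPKM in QC and 33.62, 24.25 and 14.65 FPKM in PC. In shFoxM1 cells it was at 10.87, 6.87, 6.27 and 16.74 FPKM when quiescent and 20.42, 23.41, 18.78 and 11.48 FPKM when activated. The shControl groups did not overlap, and the shFoxM1 groups did, through QFM 4 and PFM 4. The log2 fold change was 1.30 ± 0.35 in shControl cells (adjusted p = 0.0140, ratio of means 2.72) and 0.86 ± 0.30 in shFoxM1 cells (adjusted p = 0.0449, ratio 1.82). Without PC 1 the shControl value was 1.03 (adjusted p = 0.0644) and without QC 2 it was 1.18 (adjusted p = 0.0605). The shFoxM1 call was kept in 5 of 14 omissions, over which the adjusted p ran from 0.00814 without QFM 4 to 0.144, and in 8 of 13 other settings. Of its 2369 exon bases 105 are shared with Prelid1 on the opposite strand, which was at 287 FPKM in QC and 432 FPKM in PC and was also called higher (0.59, adjusted p = 0.0136). Whether counting used the strand is not given in the sources used here, so reads in those bases cannot be assigned.

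Mxd1 (ENSMUSG00000001156.9, chromosome 6, 86647042 to 86669161, minus strand), a repressor known to rise as cells differentiate, was at 1.95, 2.65 and 2.30 FPKM in QC and 1.17, 0.88 and 1.34 FPKM in PC. In shFoxM1 cells it was at 2.43, 2.24, 2.24 and 1.73 FPKM in quiescent and 1.22, 1.46, 1.2 and 1.76 FPKM in activated libraries. The shControl groups were apart, and the shFoxM1 groups met only through QFM 4 and PFM 4. Its log2 fold change was -0.63 ± 0.17 in shControl cells (adjusted p = 0.0127), lost without PC 2 (adjusted p = 0.0556) or QC 2 (adjusted p = 0.0649) or with quantile normalization (adjusted p = 0.0523), and -0.39 ± 0.15 in shFoxM1 cells (adjusted p = 0.0528). The latter was called without PFM 4 (adjusted p = 0.0373) or QFM 4 (adjusted p = 0.0197), and in 6 of 12 other settings (adjusted p from 0.00182 to 0.158).

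Mxi1 (ENSMUSG00000025025.13, chromosome 19, 53310518 to 53375810, plus strand), the other Sin3-recruiting partner of Max in this family, was at 3.14, 4.63 and 4.78 FPKM in QC, 2.93, 3.54, 3.93 and 4.41 in QFM, 2.83, 2.25 and 3.58 in PC and 2.25, 2.38, 4.02 and 3.24 FPKM in PFM. States overlapped under both hairpins, and neither difference passed (-0.41 ± 0.21, adjusted p = 0.154 in shControl, and -0.26 ± 0.18, adjusted p = 0.314 in shFoxM1 cells). The shControl difference of Mxi1 was called in 3 of 12 other settings and in 0 of 14 omissions. The settings were protein-coding sum scaling (-0.64, adjusted p = 0.0346), array weights, which weight each library (-0.51, adjusted p = 0.00704), and removal of a GC and length trend with replicate numbers as a block (-0.47, adjusted p = 0.0351). Mnt (ENSMUSG00000000282.12, chromosome 11, 74830920 to 74845725, plus strand), a broadly expressed Max partner and antagonist of Myc, was at 11.35, 11.62 and 9.91 FPKM in QC and 7.64, 4.30 and 10.39 FPKM in PC. The groups overlapped through PC 3, and the difference of -0.57 ± 0.27 (adjusted p = 0.131) was called without that library (-0.82, adjusted p = 0.0408). Of 13 other settings it was called in 2, protein-coding sum scaling (-0.83, adjusted p = 0.0398) and array weights (-0.56, adjusted p = 0.0114). With shFoxM1, Mnt ranged from 8.49 to 11.31 FPKM in quiescent and 6.99 to 14.80 FPKM in activated cells, a difference of 0.03 ± 0.24 (adjusted p = 0.932).

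Myc (ENSMUSG00000022346.15, chromosome 15, 61985391 to 61990374, plus strand) was at 21.83, 13.98 and 16.85 FPKM in QC and 11.80, 15.64 and 49.07 FPKM in PC. PC 1 lay below all QC libraries, PC 2 among them and PC 3 above them. The log2 fold change of 0.27 ± 0.39 (adjusted p = 0.625) did not pass and its direction turned on single libraries, from -0.32 without PC 3 to 0.66 without PC 1. In shFoxM1 cells Myc was at 17.53, 13.57, 10.29 and 17.42 FPKM when quiescent and 27.00, 20.69, 29.98 and 36.29 FPKM when activated. All 4 activated libraries lay above all 4 quiescent ones, and the log2 fold change of 0.91 ± 0.33 (ratio of means 1.94) missed the threshold with an adjusted p of 0.0506. It was called in 3 of 14 omissions, without PC 1 (adjusted p = 0.0334), PC 3 (adjusted p = 0.00521) or QFM 4 (adjusted p = 0.0454), and in 6 of 13 other settings. The PC libraries are not part of this difference and enter only the shared estimate of spread. Over the other settings the adjusted p ran from 0.0102, with only QFM and PFM in the fit, to 0.152. The difference between the responses was 0.64 (95% interval -0.44 to 1.73) and did not pass.

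Mycl (ENSMUSG00000028654.13, chromosome 4, 122995652 to 123002485, plus strand), the least abundant measured Myc family gene, was at 0.78, 1.15 and 0.87 FPKM in QC and 0.21, 0.06 and 0.33 FPKM in PC. In shFoxM1 cells it was at 1.27, 0.64, 0.71 and 1.28 FPKM when quiescent and 0.04, 0.10, 0.15 and 0.11 FPKM when activated. No activated library reached the lowest quiescent one, yet all values rest on about 0.6 to 23.03 reads, and Mycl entered the test only through 3 quiescent libraries above 1 FPKM, as given above. The log2 fold change of FPKM + 1, a scale that understates the change of low genes, was -0.69 ± 0.18 (adjusted p = 0.0126) in shControl and -0.83 ± 0.16 (adjusted p = 0.00166) in shFoxM1 cells. The ratios of means were 0.214 and 0.103. The shControl call was lost without PC 2 (adjusted p = 0.0568) or QC 2 (adjusted p = 0.0622) or with quantile normalization (-0.48, adjusted p = 0.0992), and the shFoxM1 call was kept in all 14 omissions.

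Max (ENSMUSG00000059436.12, chromosome 12, 76937269 to 76962201, minus strand), the common partner, was at 22.04, 19.80 and 17.73 FPKM in QC, 18.40, 17.02, 19.12 and 18.81 in QFM, 15.27, 20.27 and 20.13 in PC and 20.28, 22.31, 31.77 and 18.71 FPKM in PFM. Its states overlapped under both hairpins, with PFM 3 the highest of all libraries. The activation differences were -0.10 ± 0.18 (adjusted p = 0.712) in shControl and 0.30 ± 0.16 (adjusted p = 0.167) in shFoxM1 cells. Mlx (ENSMUSG00000017801.15, chromosome 11, 101087277 to 101092207, plus strand) was at 25.19, 19.80 and 17.68 FPKM in QC and 22.01, 31.31 and 24.63 FPKM in PC, which overlapped (0.30 ± 0.19, adjusted p = 0.235). It ranged from 21.80 to 26.24 FPKM in QFM and 23.68 to 35.99 FPKM in PFM (0.24 ± 0.16, adjusted p = 0.278). Of its 1999 exon bases 385 overlap Psmc3ip on the other strand, which was called higher in activated shControl cells (1.51, adjusted p = 0.00231).

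The make-up of the Mxd and Mxi1 transcripts differed between the states, while their summed level overlapped between them. Mxd4 made up 64.4 ± 4.24% of the summed FPKM of Mxd1, Mxd3, Mxd4 and Mxi1 in QC and 62.1 ± 7.25% in QFM, against 29.8 ± 12.2% in PC and 32.2 ± 12.6% in PFM. Mxd3 made up 20.7 ± 6.30 and 23.7 ± 7.83% in the quiescent groups and 59.7 ± 15.2 and 54.8 ± 14.8% in the activated ones. The sums were 43.4 ± 2.88 FPKM in QC, 42.4 ± 9.45 in QFM, 40.02 ± 10.4 in PC and 33.9 ± 3.78 FPKM in PFM. Per library, the ratio of Mxd3 to Mxd4 was 0.468, 0.259 and 0.25 in QC and 0.511, 0.344, 0.191 and 0.534 in QFM, against 2.33, 3.83 and 0.997 in PC and 3.55, 2.53, 1.38 and 0.752 in PFM. All activated libraries lay above all quiescent ones, with PC 3 and PFM 4 the nearest to them. These shares restate the levels above and carry no test of their own.

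Myc stood at 0.407 ± 0.108 of the summed Mxd and Mxi1 level in QC, 0.358 ± 0.106 in QFM, 0.707 ± 0.638 in PC and 0.855 ± 0.240 in PFM. In PC the 3 libraries spread from 0.227 to 1.43, around the whole quiescent range, and in PFM all 4 were above it, from 0.567 to 1.14. PC 3 and PFM 4 had the highest Myc, the lowest Mxd3 and the highest Mxd4 of their groups. They also had the lowest share of mitochondrially encoded transcripts in their groups (5.85 and 6.19% of the coding FPKM sum). Their scores on the second principal component (20.7 and 20.5) were the highest of their groups. The gene loadings of this component correlated with the GC content of the transcripts (Spearman's r = 0.713). QFM 4 had the lowest mitochondrial share (5.51%) and the highest score (37.8) of all libraries. Its Mxd3 was the highest of its group (16.74 FPKM), and its Myc (17.42 FPKM) and Mxd4 (31.32 FPKM) were not. The part of these library traits in the values was not tested.

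**Figure D3:**
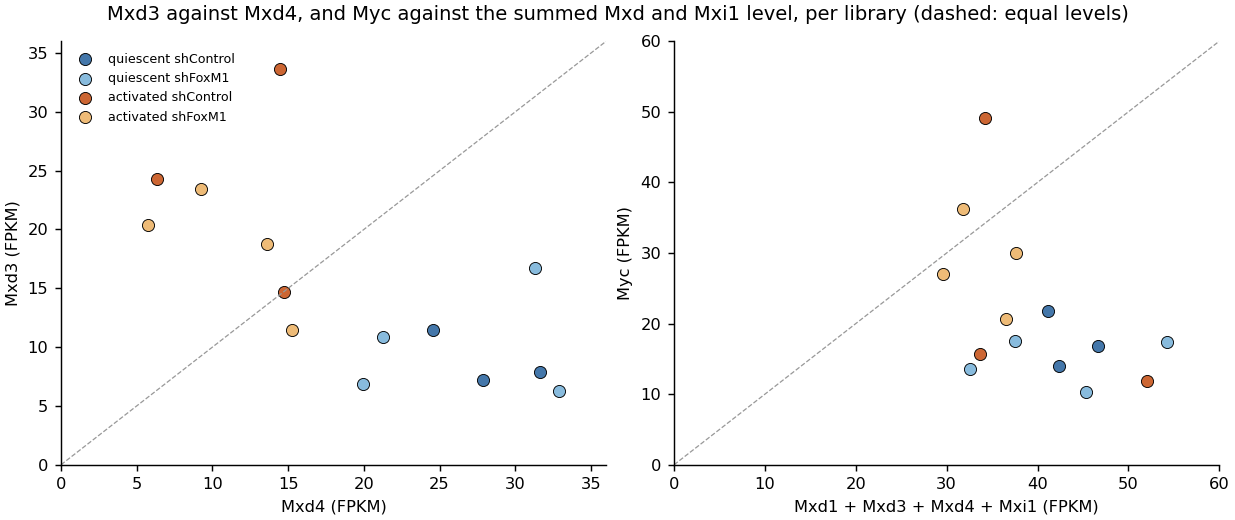
Mxd3 against Mxd4 (left) and Myc against the summed level of Mxd1, Mxd3, Mxd4 and Mxi1 (right), in FPKM, 1 point per library coloured by group, with dashed lines at equal levels. On the left the quiescent libraries lie below the line, with Mxd3 to Mxd4 ratios of at most 0.534. The activated ones have ratios of 0.752 to 3.83, with PC 3 (0.997) and PFM 4 (0.752) also below the line. On the right 1 activated shControl and 1 activated shFoxM1 library lie above the line.

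The second question was whether the Foxm1 hairpin changed the network. No member was called with limma in quiescent cells, in activated cells or for the difference between the activation responses, and none had an unadjusted p under 0.05 in any of the 3. Over all 12432 genes the calls were 0 (0%) in each, with 263 genes (2.12%), 978 (7.87%) and 433 (3.48%) at an unadjusted p under 0.05. No member's libraries kept the hairpins apart in either state, against 3.12% of genes in quiescent and 9.4% in activated cells. In quiescent cells the member differences ran from -0.25 for Myc to 0.19 for Mlx, and their 95% intervals together spanned -1.02 to 0.81. In activated cells they ran from -0.34 for Mxd3 (95% interval -1.04 to 0.37) to 0.47 for Mnt (-0.08 to 1.02). Myc differed by 0.39 (-0.37 to 1.16), Max by 0.29 (-0.07 to 0.66) and Mxd4 by -0.10 (-0.77 to 0.57). Changes of up to about these bounds are not excluded at this number of libraries. With array weights, estimated gene by gene because the likelihood-based estimate did not converge, Max was called higher in activated shFoxM1 cells (0.43, adjusted p = 0.0361), in a setting that also called 2075 of all genes.

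The patterns of Myc, Mxd3 and Mxd4 over the 14 libraries were set beside those of 8587 protein-coding genes with a mean of at least 5 FPKM by Pearson's r of log2 values, as a description in which the points share libraries and the split between states. Closest to Mxd4 were Hes6 (0.982), a transcription factor gene of the Hairy family, Ephb6 (0.977), Pik3ip1 (0.974), an inhibitor of phosphoinositide 3-kinase, Lgals3bp (0.972) and Creld1 (0.971). Hes6 went from 41.9 FPKM in QC and 40.9 in QFM to 25.2 in PC and 22.6 FPKM in PFM. Closest to Mxd3 were Tcf19 (0.958), the histone gene Hist1h2bc (0.955), Tubb2a (0.954), the thymidine kinase Tk1 (0.952) and Selenoh (0.948). For Myc they were Slc7a1 (0.950), a transporter of cationic amino acids, Arfrp1 (0.916), Pdcd11 (0.912), Vac14 (0.903) and the cysteinyl-tRNA synthetase Cars (0.903). Slc7a1 averaged 7.28 FPKM in QC, 6.47 in QFM, 14.02 in PC and 17.01 FPKM in PFM.

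Among the members, the strongest correlation over the 14 libraries was that of Mxd1 with Mxd3 (r = -0.88). After the group means were removed it was -0.65. Next came Mycl with Mxd4 (0.86, and 0.39 within groups) and Mxd4 with Mxi1 (0.84, and 0.79 within groups). Mxd3 and Mxd4 ran in opposite directions (r = -0.72), with little left within groups (-0.23). Max and Mlx had an r of 0.72 over all libraries and 0.82 within groups, the strongest of the pairs within groups.

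Many genes that Myc is known to raise rose on activation. These genes, and those of the lists below, were listed with earlier results of these data known. The count over all genes raised by Myc was added after seeing the data. Whether Myc had a part in these changes was not tested. Of 58 listed genes 56 were tested, and 26 (46.4%) were called higher and none lower in shControl cells, beside 11.7% of all genes called higher. In shFoxM1 cells 46 (82.1%) were called higher and none lower, beside 18.3%. Median log2 fold changes were 0.69 and 0.86, where the medians of all genes were -0.11 and 0.03. With libraries scaled to their protein-coding sum, 16 were called higher in shControl cells. The difference between the responses was called for none of the 56, and for 0 of all 12432 genes tested. The larger count in shFoxM1 cells, which have 4 libraries a group, is therefore not shown to be a larger response.

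By role, 6 of 17 nucleolar genes rose in shControl and 14 of 17 in shFoxM1 cells, among them Nop56, a core protein of box C/D small nucleolar ribonucleoproteins, at 61.4 ± 10.1 FPKM in QC and 136 ± 30.3 FPKM in PC (1.13 ± 0.21, adjusted p = 0.00171). Of 28 metabolic genes, 14 and 23 rose. Odc1, the rate-limiting enzyme of polyamine synthesis and a classic Myc target, was at 20.6 ± 2.35 FPKM in QC and 71.0 ± 18.3 FPKM in PC (1.71 ± 0.22, adjusted p = 1.89e-04). In shFoxM1 cells it was at 21.7 ± 5.66 and 86.8 ± 10.9 FPKM (1.98 ± 0.19, adjusted p = 1.39e-05). Ahcy, which hydrolyses S-adenosylhomocysteine, and Umps, of pyrimidine synthesis, rose by 1.40 and 0.91 in shControl cells. Of 11 translation and cell cycle genes, 6 and 9 rose, including Rcc1, the exchange factor of Ran (1.05 and 1.24), and Cks2, a subunit of cyclin-dependent kinases (1.43 and 1.13).

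Genes that Myc is known to lower were tested for 9 of 11, and 4 fell in shControl and 5 in shFoxM1 cells, with none higher (medians -0.80 and -0.86), beside 16.5 and 12.3% of all genes called lower. Pdgfrb, a receptor of platelet-derived growth factor, was at 114 ± 1.89 FPKM in QC and 25.8 ± 9.19 FPKM in PC (-2.17 ± 0.31, adjusted p = 3.89e-04). Cdkn1b, the p27 inhibitor of cyclin-dependent kinases, fell by 0.80 in shControl and 0.86 in shFoxM1 cells, and Cebpa by 1.28 in shControl cells.

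**Figure D4:**
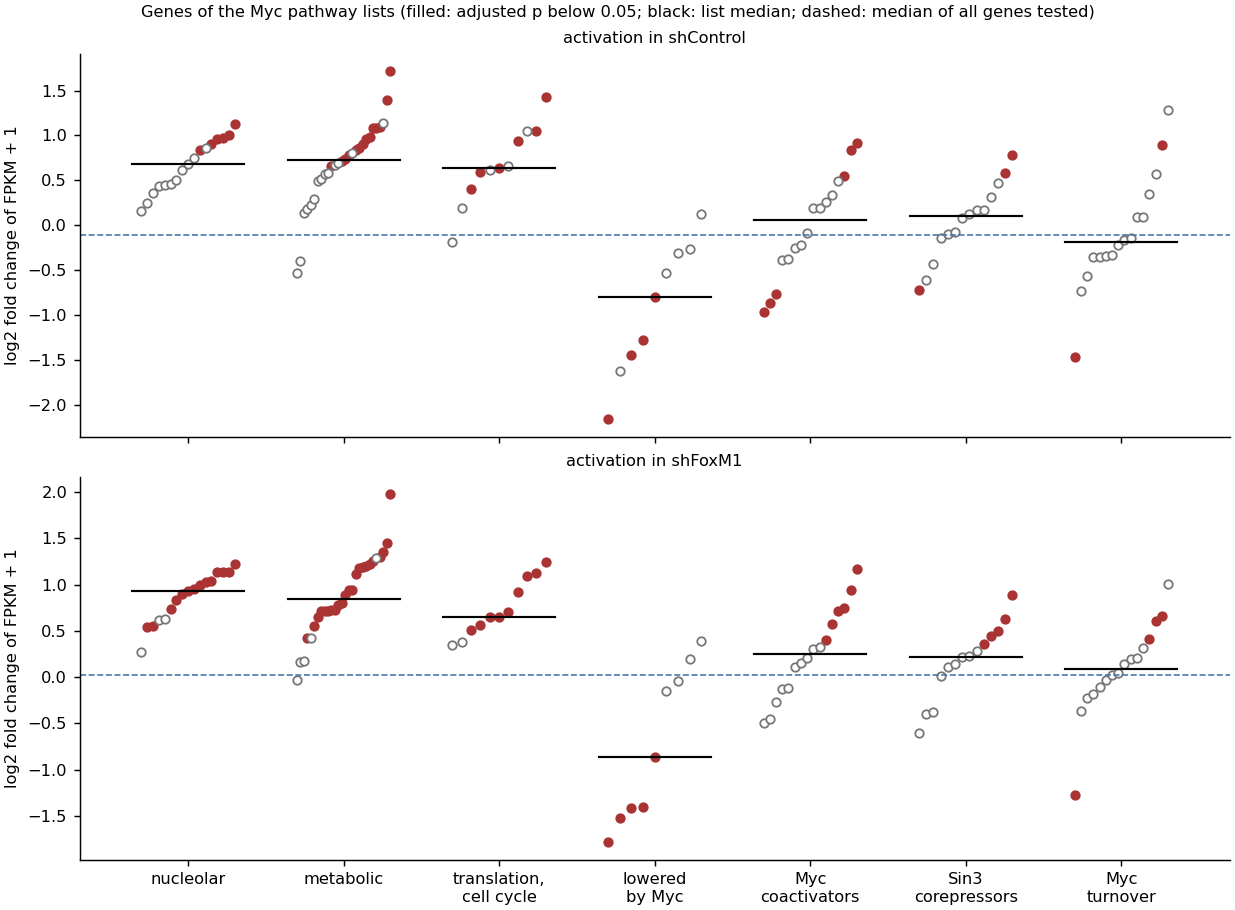
Log2 fold change of FPKM + 1 (vertical axes) on activation in shControl (top) and shFoxM1 cells (bottom) for the tested genes of 7 lists (horizontal axis), filled red where the adjusted p is below 0.05, with the list median as a black line and the median of all genes tested as a dashed line. The 3 lists of genes raised by Myc have medians between 0.63 and 0.93, the genes lowered by Myc have medians of -0.80 and -0.86, and coactivators, Sin3 corepressors and turnover genes have medians between -0.19 and 0.25.

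Of the partners beyond the core network, 1 of 3 tested was called on activation in shControl cells, beside 28.3% of all genes tested. None was called in shFoxM1 cells, beside 30.7%. Mlxip, the partner of Mlx, was at 4.67 FPKM in QC and 2.82 FPKM in PC (-0.59 ± 0.18, adjusted p = 0.0233). The call was lost without PC 1, PC 2, QC 1 or QC 2 (highest adjusted p = 0.103) and kept in 8 of 12 other settings. It was lost with quantile normalization (adjusted p = 0.0849) and with only QC and PC in the fit (adjusted p = 0.0798). With the trend on GC content and length removed it was lost as well (-0.33, adjusted p = 0.101), also with the replicate block (adjusted p = 0.118). In shFoxM1 cells Mlxip differed by -0.13 (adjusted p = 0.555). Mga, a Max partner with a T-box domain, and Zbtb17, through which Myc lowers transcription, did not pass under either hairpin, and Mlxipl stayed at or below 0.02 FPKM. Txnip, the best known target of Mlx with Mlxip, fell in both, from 68.3 to 21.4 FPKM in shControl (-1.46 ± 0.45, adjusted p = 0.0253) and from 50.8 to 18.2 FPKM in shFoxM1 cells (-1.52 ± 0.39, adjusted p = 0.00889). The shControl call on Txnip was lost with no filter on low values (adjusted p = 0.0753) and without PC 1, PC 2, QC 2 or QC 3, and without QC 3 the value was -0.998 (adjusted p = 0.115). Arrdc4, the other target listed, was too low to be tested. Its means were higher in the activated groups, at 0.253 FPKM in QC, 0.593 in PC, 0.1325 in QFM and 0.7025 FPKM in PFM. With no filter on low values, 1 of the 2 targets was called higher and 1 lower in shFoxM1 cells. Pvt1, the long noncoding RNA gene beside Myc, averaged 6.89 to 8.87 FPKM in the 4 groups and did not pass in any comparison.

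Calls among genes that work with the network or on Myc itself are read beside the shares of all genes called higher (11.7% in shControl, 18.3% in shFoxM1 cells) and lower (16.5 and 12.3%). Of 14 Sin3 corepressor genes, 2 rose and 1 fell in shControl and 5 rose and none fell in shFoxM1 cells, with Sap18, a Sin3-associated protein, higher in both (0.78, adjusted p = 0.00597, and 0.89). Of 16 Myc coactivator genes, 3 rose and 3 fell in shControl and 6 rose and none fell in shFoxM1 cells. Ruvbl1, a helicase-like subunit of chromatin remodelling complexes, rose in both (0.84 and 0.94), and the acetyltransferase gene Crebbp fell in shControl cells (-0.96, adjusted p = 0.0169), a call lost without PC 1, PC 2, QC 1 or QC 2 (highest adjusted p = 0.0822). Of 16 genes of Myc protein turnover, 1 rose and 1 fell in shControl and 3 rose and 1 fell in shFoxM1 cells. The one that fell under both hairpins was Fbxo32, a ubiquitin ligase subunit of atrophying muscle (-1.47 ± 0.29, adjusted p = 0.00243, and -1.27). The median of each of these 3 lists changed sign under another scaling in at least 1 of the activation comparisons. None of the lists had a gene called for the knockdown in either state or for the difference between the responses. In these comparisons 0 of all 12432 genes tested were called, so this says nothing particular to the lists.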

How the data were processed

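The authors deposited 1 table of FPKM values with 2 decimals, whose name gives RSEM. Per the submitters' processing notes, Bowtie 0.12.9, Cufflinks 2.1.1, HTSeq and the mm10 build were used. Which step made the values is not given in the sources used here, nor are the gene model release and the use of strand. Of the 49585 identifiers, 49326 had a match in GENCODE M21.

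Log2(FPKM + 1) was tested in R 4.3.3 with limma 3.58.1, with 4 group means over 14 libraries and empirical Bayes with a trend. A gene entered when 3 or more libraries reached 1 FPKM, which left 12432, and Benjamini-Hochberg adjusted p-values below 0.05 were calls. The contrasts were activated against quiescent per hairpin, shFoxM1 against shControl per state, and the difference of responses. The test was tried on simulated data. Depth came from steps of 1 read in FPKM times effective length (fragment length 240), where 94.3 to 95.5% of low values lay within 0.25 read of a step. Counts were not used, so no counting intervals are given.

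The members and gene lists were chosen with earlier results of these data known. The genes named are the members, the smallest p-values of each list (up to 4 for activation in shControl cells and 2 per other comparison), all genes of lists of at most 4, and the 5 closest to Myc, Mxd3 and Mxd4. A further count over the genes raised by Myc was added after seeing the data. No source pairs same-numbered libraries and their deviations were not all correlated above 0.1 in any comparison, so the numbers were not used as pairs. The results of 1 gene of the turnover list are not reported here.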

Additional observations from a re-analysis of the deposited data

How the results depend on the processing

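Of 1191 member values under 13 other settings and 14 omissions of a library, 1087 kept direction and side of the threshold, 23 lost a call, 25 gained one and 56 changed sign, all 56 in differences not called before or after. Mxd4 was called lower in all 13 other settings under both hairpins (-1.53 to -1.02 in shControl, -1.48 to -1.20 in shFoxM1 cells), and Mxd3 higher in all 13 in shControl cells. The cause of the changes below was not tested.

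Members called on activation in shControl cells (4) numbered 2 with a mean of at least 5 FPKM, where Mycl, Mxd1 and Mxi1 were not tested, 2 with quantile normalization, and 1 (without PC 2 or QC 2) to 5 over omissions. Those in shFoxM1 cells (3) numbered 6 with array weights, 5 with a GC and length trend removed, and 2 to 5 (5 without QFM 4) over omissions. Genes called numbered 7356 and 7055 with array weights, which are gene-by-gene estimates because the likelihood-based ones did not converge, and 1903 (without QC 2) to 4347 over omissions in shControl cells. Genes raised by Myc and called higher in shControl cells numbered 16 with protein-coding sum scaling. For the knockdown in quiescent cells, 4 genes were called with no filter, 303 with array weights and 0 to 19 (without QC 1) over omissions. In activated cells these were 1 with no filter and 2075 with array weights, 1 of them a member. Protein-coding sum scaling moved the median of all genes to -0.36 and -0.20 in the activation comparisons.

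Signs changed on activation in shControl cells for Myc (-0.018 with protein-coding sum scaling, -0.041 with array weights, -0.32 to 0.66 over omissions), Max (0.020 with median-of-ratios scaling, -0.17 to 0.029) and Pvt1 (0.099 with median-of-ratios scaling, 0.19 quantile, -0.21 to 0.11). In shFoxM1 cells they changed for Mnt (-0.0070 median-of-ratios, -0.20 protein-coding sum, -0.23 array weights, -0.024 with GC and length removed, also with the replicate block, -0.14 to 0.19) and Mlx (-3.3e-04 protein-coding sum). For the knockdown in quiescent cells they changed for Mycl (-0.18 array weights, -0.021 replicate block, -0.056 to 0.10), Mxd1 (-0.14 to 0.013), Mxd3 (-0.14 to 0.29) and Mxd4 (-0.23 to 0.0059). In activated cells they changed for Mxd4 (0.0085 protein-coding sum, -0.46 to 0.15), Mxi1 (-0.078 median-of-ratios, -0.066 quantile, -0.11 array weights, -0.032 replicate block, -0.099 to 0.15) and Mlx (-0.0051 median-of-ratios). The difference of responses changed sign for Mycl (0.032 array weights), Mxd4 (-0.14 median-of-ratios and quantile, -0.23 array weights, -0.084 with GC and length removed, also with the block, -0.35 to 0.26) and Mlx (0.067 array weights, 0.0022 with GC and length removed, also with the block, -0.20 to 0.079).

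Replicate numbers recur across groups without a stated pairing. Of 13 same-numbered pairs 6 had deviations correlated above 0.1 (-0.21 to 0.38), and 4 of the 13 correlated best within their own number. Between QFM and PFM all 4 were positive (0.089 to 0.38), and numbers 1, 3 and 4 correlated best within their own number. With the replicate block 3983 and 4167 genes and 4 and 4 members were called on activation, and no gene for the knockdown. The block made Myc a call in shFoxM1 cells (adjusted p = 0.0441). Counts per gene were not used, and Mycl rests on few reads.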
